A study of Mus musculus with 4 samples.

Results

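Among the stromal cells of mouse submandibular glands, 101 of 39843 filtered cells were CD3-positive lymphocytes with transcripts of Cd163l1, a scavenger receptor family gene known in mice as a marker of a subset of gamma delta T cells. They were chosen from the raw UMI counts (unique molecular identifiers, 1 per captured transcript) as cells with at least 1 UMI of Cd163l1, at least 1 UMI over Cd3d, Cd3e and Cd3g, and none of Cd8b1, Ncr1 and Cdh5, after removing cells under 500 UMIs, under 300 genes or over 15% mitochondrial UMIs. These 7 genes chose the cells, so their values are a description. The glands came from female C57BL6/J mice 14 days after 1 of 2 operations. In the ligated group (1 library), a metal clip stayed on the main excretory ducts of both major lower glands (submandibular and sublingual), and in the mock group (3 libraries) the ducts were found but not clipped; both glands were harvested. All cells were depleted of EpCAM-positive and Ter119-positive cells and of dead cells, and captured in 10x Genomics droplets. The labels give neither the age nor the number of mice per library. The ligated library held 25 gated cells, against 6, 33 and 37 in mock 1, 2 and 3.

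Gamma delta T cells carry a receptor built from a gamma and a delta chain in place of the alpha and beta chains of conventional T cells. In mice, part of them is set in the thymus to make interleukin 17: the transcription factors c-Maf and Sox13 and the kinase Blk belong to that programme, and the cells answer interleukin 23 and interleukin 1 through Il23r and Il1r1. Such cells are known to live in barrier tissues such as skin, lung and the oral mucosa, often with a restricted set of gamma and delta V segments.

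The libraries held 80187555 UMIs (ligated) and 29897488 to 56932041 UMIs (mock), and the gated cells had a median of 4888 UMIs in the ligated library, against 5241, 5713 and 4421 in mock 1, 2 and 3. Mock 1 rests on 6 cells. Pairs of libraries shared 11 to 61 barcodes, and 2 gated barcodes, 1 ligated and 1 of mock 3, were also found in another library. Mock 2 and mock 3 were closest to each other, with a chi-square per degree of freedom of 11.8 over all filtered cells, against 173 to 531 for the other pairs, and were kept as separate samples. Per the file headers, the ligated library and mock 1 came from another Cell Ranger version than mock 2 and mock 3. Of the gated cells, 4 (2 ligated, 2 of mock 3) carried at least 20 UMIs of markers of endothelial, fibroblast, mural, macrophage, dendritic, B, epithelial, erythroid or glial cells, and are called mixed barcodes here.

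Cd3e, a CD3 chain used in the selection, had a UMI in 25 of 25 ligated cells and in 6 of 6, 30 of 33 and 36 of 37 mock cells. The cells fitted their label as gamma delta T cells by genes that the selection had not used. Trdc, the constant region of the delta chain (chr14:54142851-54148868, plus strand, mm10), had a UMI in 22 of 25 ligated cells and in 6 of 6, 31 of 33 and 37 of 37 mock cells. Together that was 96 of 101 cells, and 99 of 101 had Trdc or a gamma constant chain, against 0.284% of 18290 endothelial cells with Trdc. Trdc reached 1299 CPM (counts per 1e6 UMIs of the summed gated cells) in the ligated library, against 3564, 2251 and 1976 CPM in mock 1, 2 and 3. Trac, the alpha constant region, had a UMI in 4 of 25 ligated cells and in 1 of 6, 10 of 33 and 5 of 37 mock cells. Of all gated cells 80 had Trdc without Trac, 16 had both, 4 had Trac without Trdc and 1 had neither. Trbc2, a beta constant region, was present in nearly every cell, at 957 CPM in the ligated library, against 840, 993 and 761 CPM in mock 1, 2 and 3.

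The V segments were unevenly used. Trdv4, the delta V segment of the mouse receptor called V delta 1 (chr14:54074905-54075515, plus strand), had a UMI in 16 of 25 ligated cells and in 4 of 6, 29 of 33 and 32 of 37 mock cells, 81 of 101 in all. Tcrg-V6, the gamma V segment known to pair with it in an invariant receptor (chr13:19190356-19190929, plus strand), had a UMI in 46 cells, of which 45 also had Trdv4. Tcrg-V6 was seen in 2 of 25 ligated cells and in 3 of 6, 21 of 33 and 20 of 37 mock cells, and in 0 of 18290 endothelial cells. With every cell thinned to 1000 UMIs, the share with Tcrg-V6 was 8.33% in the ligated library, against 0.00, 24.2 and 13.5% in mock 1, 2 and 3, so that the groups overlapped at equal depth. Tcrg-V1 was seen in 20 cells, Tcrg-V4 in 7, and no gamma V segment at all in 20. These segments are short and alike, so that the counting could have missed or shared some of their reads.

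**Figure D1:**
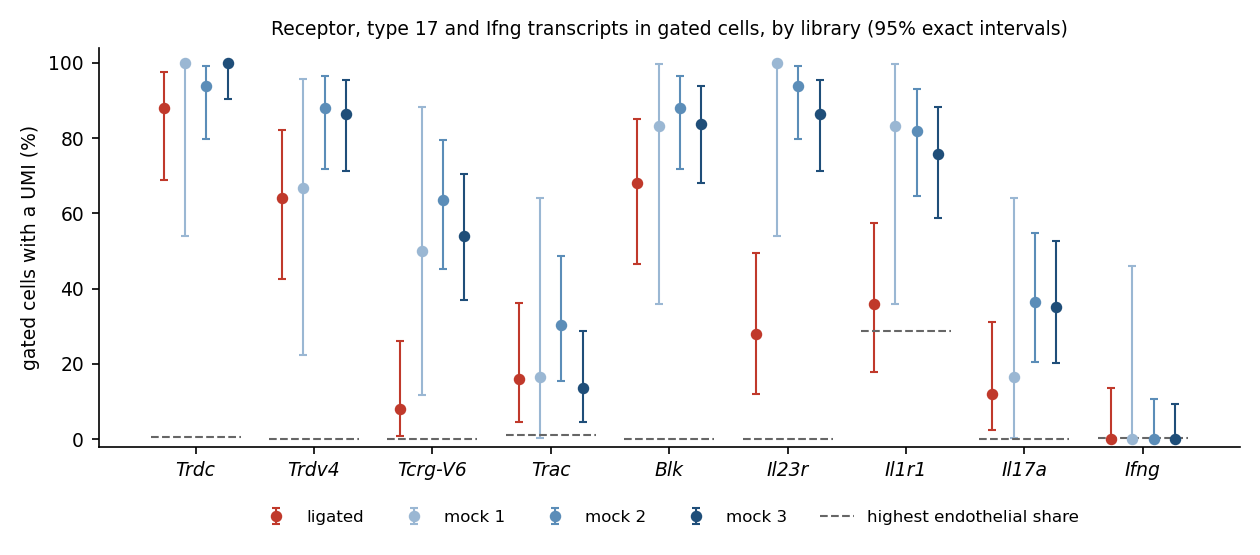
Percent of gated cells with at least 1 UMI of each gene (vertical axis), for the ligated library and mock 1 to 3, with exact 95% intervals that cover counting error only; the dashed line is the highest share among endothelial cells of any library. Trdc is near the top in every library, Ifng is at 0 in every library, and Il23r is at 28% in ligated cells and at 86.5 to 100% in mock cells.

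The type 17 genes were widespread. Blk had a UMI in 17 of 25 ligated cells and in 5 of 6, 29 of 33 and 31 of 37 mock cells, against 0.0437% of endothelial cells. Il17a, the cytokine itself (chr1:20730905-20734496, plus strand), had 18 UMIs in 3 ligated cells and 1, 26 and 63 UMIs in 1, 12 and 13 cells of mock 1, 2 and 3. Il17a or Il17f was seen in 31 of 101 cells, 4 of them ligated. Tbx21 or Eomes, which direct type 1 cells, had a UMI in 3 of 101 cells, and Ifng, Il22, Areg, Cd4 and Foxp3 in 0 of 101, which allows a share of up to 2.97% of cells with a UMI. The list of 6 ILC2 markers had a UMI in 7 of 25 ligated cells and in 1 of 6, 11 of 33 and 11 of 37 mock cells, with Il1rl1, Calca, Klrg1, Il5 and Areg at 0 in every library. Mki67 or Top2a, made by dividing cells, was seen in 9 of 101.

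**Figure D2:**
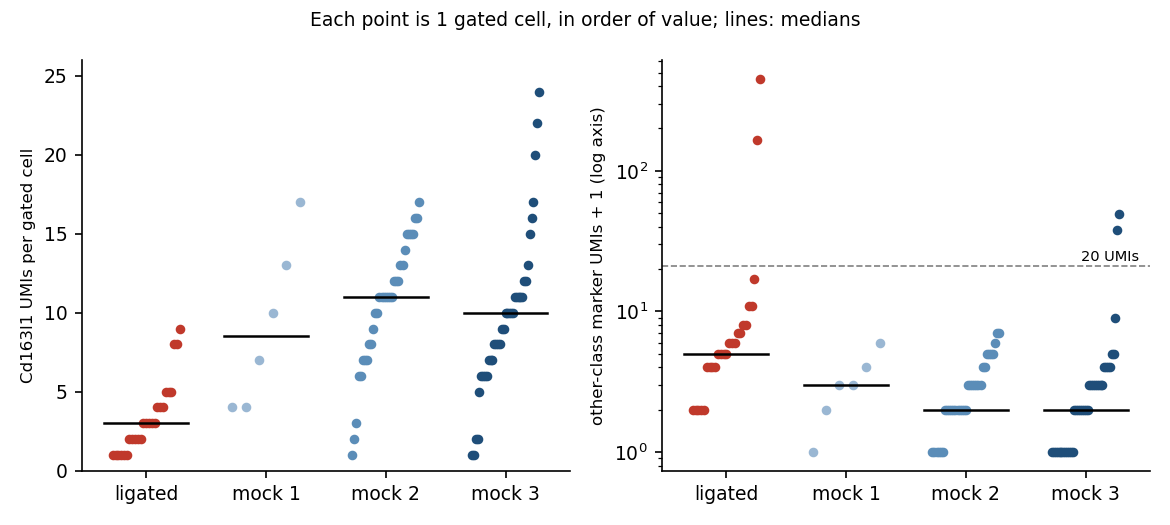
Left, Cd163l1 UMIs in each gated cell by library; right, UMIs of the other-class marker lists in each gated cell plus 1, on a log axis, with a dashed line at 20 UMIs; horizontal lines are medians. Ligated cells hold fewer Cd163l1 UMIs (median 3 against 8.5 to 11 in mock libraries) and 4 cells, 2 ligated and 2 of mock 3, lie above the dashed line.

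The edge of the selection lay at 1 UMI of Cd163l1. Ligated cells had a median of 3 Cd163l1 UMIs (range 1 to 9), and mock 1, 2 and 3 had medians of 8.5 (4 to 17), 11 (1 to 17) and 10 (1 to 24). Just inside the edge, 6 ligated cells and 0, 1 and 2 mock cells had a lone UMI. Just outside it, 19 ligated cells and 4, 6 and 7 mock cells had Trdc and Tcrg-C1 but no Cd163l1. Of these outside cells, Blk was seen in 2, both ligated, and Il23r in 1, also ligated. The neighbouring gene 5830411N06Rik, a relative of Cd163l1 on the same strand of chromosome 7 (chr7:140247284-140300736; Cd163l1 at chr7:140218267-140231145), had a UMI in 2 of 25 ligated cells and in 0 of 6, 0 of 33 and 1 of 37 mock cells.

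The share of the gated cells among all CD3 cells was 0.688% in the ligated library (25 of 3635, exact 95% interval 0.446 to 1.01%). It was 1.65, 5.67 and 4.37% in mock 1, 2 and 3 (mean 3.90 ± 2.05%, SD, n = 3). The ligated value lay below all 3 mock values. Among all filtered cells the share was 0.188% in the ligated library (0.122 to 0.277%) and 0.131, 0.357 and 0.291% in mock 1, 2 and 3 (0.260 ± 0.116%), and here the ligated value lay within the mock range. It lay below every mock library after thinning each cell to 1000 UMIs (0.0963% ligated, against 0.137, 0.346 and 0.286% mock) and with cells of 3 or more other-class UMIs left out (0.0601% ligated, against 0.109, 0.292 and 0.236% mock). CD3 cells themselves made up 27.3% of filtered cells in the ligated library, against 7.91, 6.29 and 6.67% in mock 1, 2 and 3. They are all cells with a Cd3d, Cd3e or Cd3g UMI, so that cells with Ncr1 or Cdh5 count among them. Of the 3635 ligated CD3 cells, 936 had no Cd8b1, Ncr1 or Cdh5, and 613 were CD8 T cells as chosen below. In mock 1, 2 and 3, of 363, 582 and 847 CD3 cells, 85, 163 and 209 had none of the 3 genes, and 37, 56 and 68 were such CD8 T cells. With 1 ligated and 3 mock libraries an exact permutation test cannot go below p = 0.25, and no test was made. With each cell thinned to 1000 UMIs, the gated cells were 0.552% of CD3 cells in the ligated library and 5.34 ± 2.42% in mock. Of CD3 cells without Cd8b1, Ncr1 and Cdh5, the gated cells were 2.67% in the ligated library, against 7.06, 20.2 and 17.7% in mock 1, 2 and 3. The selection depends on how much Cd163l1 each cell yields, and over all CD3 cells together Cd163l1 stood at 4.54 CPM in the ligated library, against 22.9, 84.4 and 77.8 CPM in mock 1, 2 and 3. For that cut-off the dendritic and erythroid lists were not counted, and 17 of 25 ligated gated cells, against 1 of 6, 6 of 33 and 7 of 37 mock gated cells, reached it. All of these are shares of the cells captured after depletion.

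**Figure D3:**
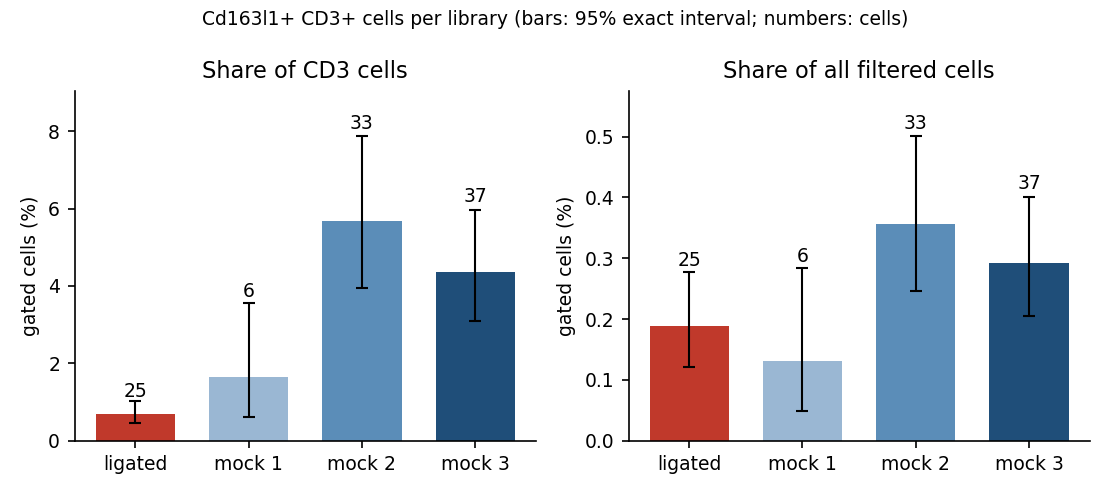
Gated cells as a percent of CD3 cells (left) and of all filtered cells (right) in the ligated library and mock 1 to 3, with exact 95% intervals covering counting error only and the number of gated cells above each bar. The ligated bar is the lowest on the left, at 0.688%, and lies inside the mock range on the right, at 0.188%, though below it after thinning (0.0963%) and with cells of 3 or more other-class UMIs left out (0.0601%).

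To describe what the gated cells express beyond the selection, their counts summed per library were set against those of CD8 T cells (CD3 cells with Cd8b1 and without Cd163l1, 613 ligated and 37, 56 and 68 mock cells), with the library as a block. The gated cells were higher in all 23 tested type 17 genes and in delta and gamma chains, and lower in alpha and beta chains and in type 1 and cytotoxic genes. edgeR's quasi-likelihood test with Benjamini-Hochberg adjustment called 552 of 2861 genes (19.3%), 280 higher (9.79%) and 272 lower (9.51%) in gated cells. Of 33 genes of the type 17 list in the data, 23 passed the filter on low counts, with a median log2 fold change of 3.76, against -0.02 over all genes tested. Genes that passed the filter through their level in gated cells alone had to differ, so that this count describes the list and is no test of it. Of 6 gamma and delta chain genes tested, 5 were higher and Tcrg-C2 did not pass (log2 fold change 0.70, adjusted p = 0.0854). All 3 alpha and beta chain genes were lower, and of 16 type 1 and cytotoxic genes 15 were lower and 1 higher.

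Values for the receptor chains show the size of these differences. Trdc averaged 2273 ± 949 CPM in gated cells and 19.2 ± 13.8 CPM in CD8 T cells (SD, n = 4 libraries), a log2 fold change of 6.11 ± 0.30 (SE). Tcrg-C1, a gamma constant chain, averaged 772 ± 126 CPM in gated cells and 15.4 ± 15.4 CPM in CD8 T cells. Trdv4 had the largest fitted difference of the chains, 8.95 ± 0.34, at 729 ± 207 CPM in gated cells and 0.266 ± 0.531 CPM in CD8 T cells. Trac was lower, at 58.7 ± 43.4 CPM in gated cells and 581 ± 99.6 CPM in CD8 T cells (log2 fold change -3.20 ± 0.28). The beta chains differed less: Trbc2 fell by 0.83 ± 0.15 and Trbc1 by 0.58 ± 0.18 on the log2 scale, and the call for Trbc1 was lost in 9 of the 13 alternatives.

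Among the regulators of the type 17 programme, Blk, a Src family kinase, averaged 535 ± 191 CPM in gated cells and 4.06 ± 7.21 CPM in CD8 T cells (log2 fold change 6.96 ± 0.37). Maf, a transcription factor, averaged 618 ± 82.4 CPM in gated cells and 40.0 ± 22.1 CPM in CD8 T cells, and Rora 269 ± 128 CPM in gated cells and 64.7 ± 26.7 CPM in CD8 T cells. All 3 regulators were higher in gated than in CD8 T cells of every library. Among the receptors, Il23r averaged 454 ± 365 CPM in gated cells and 12.4 ± 14.3 CPM in CD8 T cells (5.18 ± 0.37), and Il1r1 averaged 278 ± 190 CPM in gated cells and 10.2 ± 9.27 CPM in CD8 T cells (4.18 ± 0.31). Il18r1 was higher by 2.91 ± 0.21 and Il7r, the interleukin 7 receptor that sustains lymphocytes, by 2.53 ± 0.24 on the log2 scale. Ltb4r1, a leukotriene B4 receptor, rose by 5.96 ± 0.37, and Ramp1, a part of the receptor for the neuropeptide CGRP, by 4.05 ± 0.25.

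Further members of the list encode a protease inhibitor, an actin-binding protein and membrane channels. Serpinb1a, a protease inhibitor, averaged 523 ± 49.9 CPM in gated cells and 13.6 ± 16.3 CPM in CD8 T cells. Actn2, an actin-crosslinking alpha actinin better known from muscle, averaged 460 ± 52.5 CPM in gated cells and 53.5 ± 21.2 CPM in CD8 T cells. Aqp3, a water and glycerol channel, averaged 111 ± 34.7 CPM in gated cells and 6.36 ± 3.91 CPM in CD8 T cells. Actn2 and Serpinb1a varied little between libraries. Kcnk1, a potassium channel, had 62 UMIs in gated cells and 0 in CD8 T cells, and was at least 148-fold higher by a floor of 3 UMIs over all CD8 T cells. Il17a, which did not pass the filter, had 108 UMIs in gated cells and 0 in CD8 T cells, at least 258-fold higher by the same floor. With Kcnk1 at its bound the median of the list stayed 3.76.

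**Figure D4:**
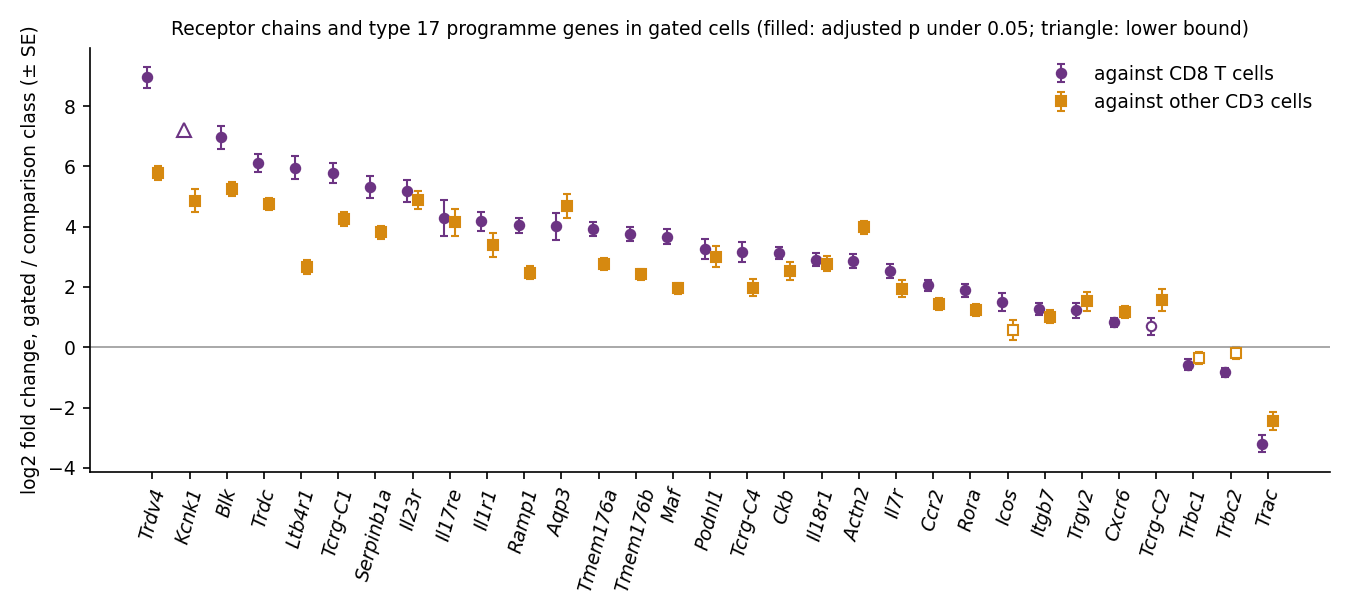
Log2 fold change of gated cells over CD8 T cells (circles) and over other CD3 cells (squares), with SE, for genes of the receptor chain and type 17 lists tested against CD8 T cells; filled symbols passed an adjusted p of 0.05 (edgeR quasi-likelihood test) and the triangle is a lower bound (Kcnk1, 0 UMIs in CD8 T cells). All type 17 genes shown lie above 0 in both comparisons, while Trac lies at -3.20 and -2.44.

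Most of the cytokine receptors tested were higher in gated cells. Of 12 cytokine receptors tested 9 were higher and 1 lower, against 9.79% and 9.51% of all genes. This list shares members with the type 17 list, among them Il23r, Il1r1 and Il18r1, so that the 2 counts are not independent. As for that list, genes that passed the filter through their level in gated cells alone had to differ. The count of receptors therefore describes the list and is no test of it. Il2ra, the high-affinity interleukin 2 receptor chain, averaged 133 ± 55.5 CPM in gated cells and 5.38 ± 4.77 CPM in CD8 T cells, and Tnfrsf25, a receptor for the cytokine TL1A, 92.1 ± 21.1 CPM in gated cells and 2.95 ± 1.30 CPM in CD8 T cells. Tnf, a cytokine placed on the type 1 list, was its exception: it was higher, at 376 ± 127 CPM in gated cells and 148 ± 69.4 CPM in CD8 T cells (log2 fold change 1.21 ± 0.18). Tnfsf14 and Cd44 also rose, by 2.76 ± 0.48 and 1.75 ± 0.22 on the log2 scale. Of 16 immediate early and stress genes 7 were higher and 1, Dusp2, was lower, with Fos higher by 1.82 ± 0.28 and Jun by 1.27 ± 0.17. Of 15 interferon-stimulated genes 1 was higher and 6 were lower.

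Of the lists, that of type 1 and cytotoxic genes had the most members lower in gated cells, 15 of the 16 tested, against 9.51% of all genes. Ccl5, a chemokine of effector CD8 T cells, averaged 293 ± 309 CPM in gated cells and 7021 ± 2493 CPM in CD8 T cells, and Nkg7, a granule protein, 44.8 ± 65.4 CPM in gated cells and 1811 ± 698 CPM in CD8 T cells. Gzmk had 0 UMIs in gated cells and was at least 33.5-fold lower. Of the T cell receptor signalling list 8 of 15 tested genes were lower and 2 higher, against 9.51% and 9.79% of all genes. Cd28 averaged 1.42 ± 2.84 CPM in gated cells and 119 ± 19.6 CPM in CD8 T cells. Lck, the coreceptor-bound kinase, averaged 30.2 ± 22.5 CPM in gated cells and 439 ± 89.2 CPM in CD8 T cells, while Cd247 rose by 1.23 ± 0.20 on the log2 scale. Cd8a is among the 8 lower genes of this list, and its change follows from the choice of CD8 T cells. The integrin genes Itga1, Itga4 and Itgb1, which anchor lymphocytes to matrix and vessels, had log2 fold changes of -3.90 ± 0.35, -4.52 ± 0.35 and -2.89 ± 0.22, while another integrin gene, Itgb7, was higher by 1.28. Fibroblast markers summed to 389 CPM in gated cells and 3694 CPM in CD8 T cells of the ligated library, and to 5.68 to 54.0 CPM in gated cells and 24.0 to 2126 CPM in CD8 T cells of the mock libraries, and their part in these differences was not tested.

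Against the other CD3 cells without Cd8b1 and Cd163l1 (911 ligated and 79, 130 and 172 mock cells), edgeR's quasi-likelihood test called 469 of 4057 genes (11.6%), 248 higher (6.11%) and 221 lower (5.45%). All 7 gamma and delta chain genes tested and 24 of 27 type 17 genes were higher (median log2 fold change 2.77, against -0.04 over all genes). Here too, genes that passed the filter through their level in gated cells alone had to differ. The counts and the median describe the lists and are no test of them. Icos, Batf and Ahr did not pass, with log2 fold changes of 0.58, 0.49 and -0.18. Tcrg-V6 averaged 160 ± 87.6 CPM in gated cells and 0.788 ± 1.19 CPM in the other CD3 cells, and Sox13, a transcription factor of interleukin 17-making gamma delta cells, 97.6 ± 47.9 CPM in gated cells and 1.55 ± 2.39 CPM in the other CD3 cells. Zbtb16, which encodes PLZF, rose by 3.05 ± 0.33 on the log2 scale. Of 21 type 1 and cytotoxic genes 18 were lower, among them Gzmc at 13.6 ± 27.2 CPM in gated cells and 1074 ± 600 CPM in the other CD3 cells, and 1, Tnf, was higher.

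The other CD3 cells were a mixed class. Natural killer and ILC1 markers summed to 389 CPM in gated cells and 5801 CPM in other CD3 cells of the ligated library, and to 0 to 210 CPM in gated cells and 2110 to 3448 CPM in other CD3 cells of the mock libraries. Fibroblast markers summed to 9792 CPM in the other CD3 cells of the ligated library and 758 to 2422 CPM in those of the mock libraries. The part of these cells in the differences was not tested. Pdcd1, Tnfsf11, which encodes RANKL, and Mmp25, a membrane-bound metalloproteinase, were higher in gated cells by 1.93 ± 0.39, 1.61 ± 0.41 and 4.25 ± 0.53 on the log2 scale. The call for Tnfsf11 was lost without mock 2 (adjusted p = 0.0555, edgeR) and with no replicate block (adjusted p = 0.174, edgeR). With the mixed barcodes left out, a choice made after seeing the data, 544 genes were called against CD8 T cells (20.4%) and 476 against the other CD3 cells (13%).

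Between the surgery groups, Il23r, the interleukin 23 receptor, had its lowest level within the gated cells in the ligated library. Il23r (chr6:67422932-67491855, minus strand) had 8 UMIs in 7 of 25 ligated cells (62.2 CPM) and 9, 151 and 125 UMIs in 6 of 6, 31 of 33 and 32 of 37 cells of mock 1, 2 and 3 (229, 815 and 710 CPM). Every mock library was above the ligated one, also after thinning each cell to 1000 UMIs. There Il23r was seen in 1 of 24 ligated cells (4.17%, exact 95% interval 0.105 to 21.1%) and in 33.1 ± 14.4% of mock cells. The lowest mock library, at 16.7%, lay within the ligated interval. edgeR's quasi-likelihood test over all genes gave a log2 fold change of -3.21 ± 0.73 and an adjusted p of 0.0884, which did not pass. It passed in 7 of 12 alternatives, among them DESeq2 (adjusted p = 0.048). Every fit that left out a mock library is also among them. Such a fit takes its spread from 2 mock libraries and called more genes in all than the main fit. Its pass is therefore no added support for the difference. Without the mixed barcodes it was -3.01 (adjusted p = 0.562, edgeR), and with a term for the Cell Ranger version, where mock 1 is the lone mock library of the ligated library's version, -1.66 (adjusted p = 0.246, edgeR). The spread comes from the mock libraries only, 3 of them in the main fit, so that these p-values measure differences between libraries, which may be technical. Il23r transcripts were at 0 in 18290 endothelial cells. Il23r and Il1r1 were seen together in 1 of 25 ligated cells and in 5 of 6, 27 of 33 and 27 of 37 mock cells.

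Several other genes of the programme were also below all mock libraries without passing the test. Il1r1 stood at 77.8 CPM in ligated cells and at 153, 443 and 437 CPM in mock 1, 2 and 3 (log2 fold change -2.16 ± 0.64, adjusted p = 0.254, edgeR). Its surgery difference was lower in gated than in other CD3 cells, with an interaction of -2.80 ± 0.61 on the log2 scale (adjusted p = 0.0439, edgeR interaction term, 12 of 6732 genes or 0.178% called), and of -1.42 without the mixed barcodes (adjusted p = 1.0). DESeq2 called 0 genes in the interaction (97 at an unadjusted p under 0.05). Endothelial cells also carry Il1r1, with a UMI in 24.2% of them. Tcrg-V6 stood at 38.9 CPM in ligated cells and at 153, 232 and 216 CPM in mock cells (-2.32 ± 0.61, adjusted p = 0.169, edgeR). Of 8 gamma and delta chain genes tested none passed. Of these, 4 (Trdc, Trdv4, Tcrg-V6 and Tcrg-V1) were below every mock library and 2 (Tcrg-C1 and Trgv2) were above. Zbtb16 stood at 38.9 CPM in ligated cells and at 50.9, 216 and 239 CPM in mock cells, so that ligated cells and mock 1 lay close together. Both libraries came from the same Cell Ranger version, another than that of mock 2 and mock 3. Blk stood at 319 CPM in ligated cells and at 433, 723 and 664 CPM in mock cells. Of 27 type 17 genes tested none passed, 13 were below and 2 above every mock library, while 25.9% of all genes tested were below and 22.5% above. Without the mixed barcodes 12 were below and 4 above. In the other CD3 cells 14 of the same 27 genes were below and 6 above every mock library (all genes, 26.9% below and 25.3% above). The surgery difference of Il23r in gated cells did not pass a test against that in other CD3 cells (adjusted p = 1.0, edgeR interaction term). Its fitted difference was 0.03 on the log2 scale, turning to -0.73 without mock 2 and -0.31 without the mixed barcodes. It has no SE here, because an SE computed from a fold change near 0 is unreliable. These values do not show that the 2 classes changed alike. Actn2 was at 459 CPM in ligated cells and 420 to 535 CPM in mock cells, within the mock range.

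**Figure D5:**
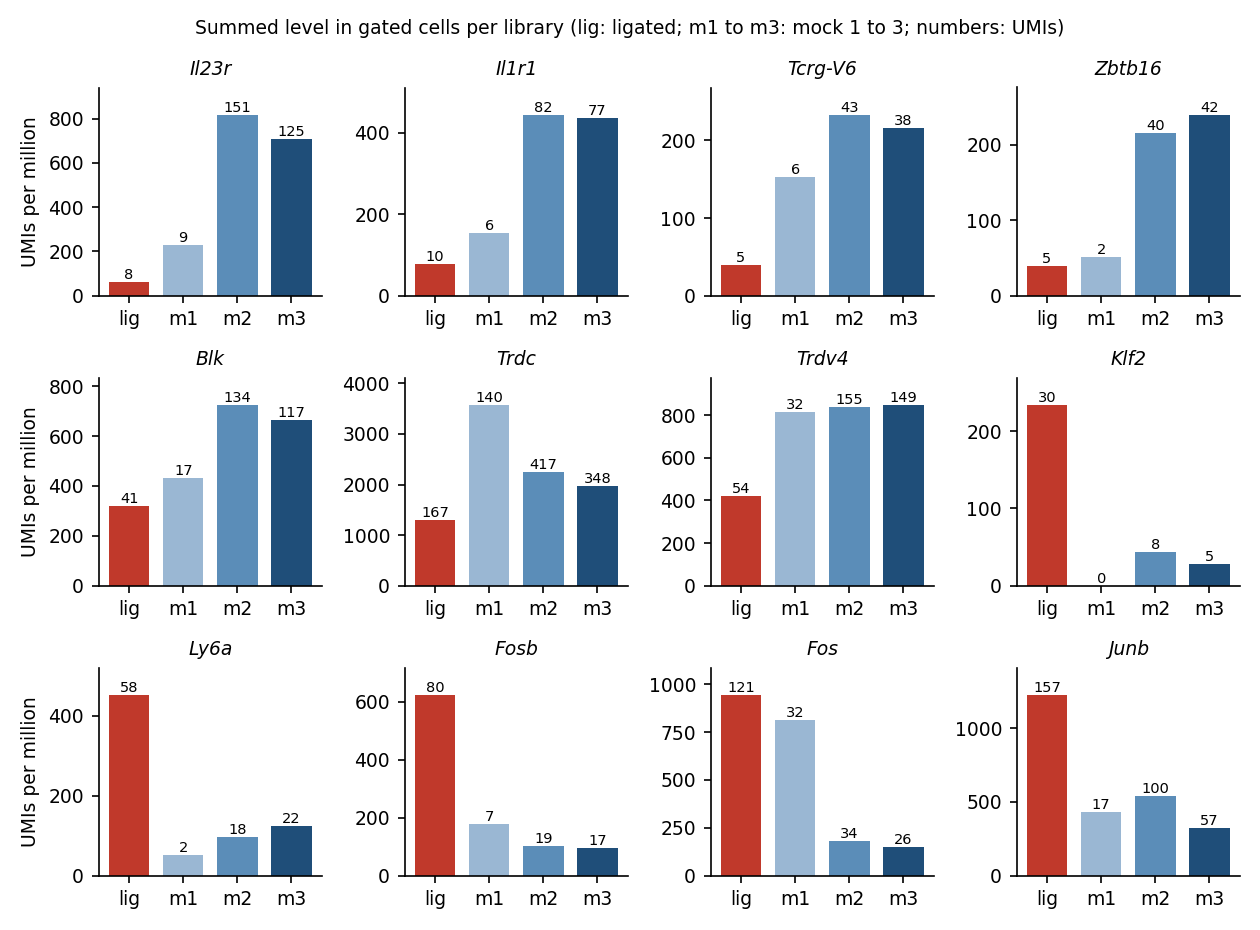
Summed level in gated cells (CPM, linear axes from 0) for 12 genes in the ligated library (lig) and mock 1 to 3 (m1 to m3), with the UMI count above each bar. Il23r, Il1r1, Tcrg-V6, Zbtb16, Blk, Trdc and Trdv4 are lowest in the ligated library, and Klf2, Ly6a, Fosb, Fos and Junb are highest there. Of the genes shown, only Fosb and Ly6a passed the main test between surgery groups, and none did without the mixed barcodes. Of 8 gamma and delta chain genes tested, 4 were below every mock library and 2 (Tcrg-C1 and Trgv2, not shown) above.

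Immediate early and stress genes went the other way. Of 19 tested, 16 were above every mock library and 0 below, against 22.5 and 25.9% of all genes. Without the mixed barcodes 16 were above and 1 below. Fosb, a subunit of the AP-1 transcription factor, stood at 622 CPM in ligated cells and at 178, 103 and 96.5 CPM in mock 1, 2 and 3, with 21 of 25 ligated cells positive (log2 fold change 2.55 ± 0.40, adjusted p = 0.00781, edgeR); without the mixed barcodes its adjusted p was 0.092. Junb, which did not pass the test, stood at 1222 CPM in ligated cells and at 433, 540 and 324 CPM in mock cells. Fos stood at 941 CPM in ligated cells and at 815, 184 and 148 CPM in mock cells, so that mock 1 was near the ligated library. These 2 libraries came from the same Cell Ranger version. Fos did not pass the test either. Of the interferon-stimulated list 7 of 14 genes were above and 1 below every mock library. In the other CD3 cells 6 of these 14 genes were above and 3 below (all genes, 25.3% above and 26.9% below). In CD8 T cells 10 were above and 0 below (all genes, 27.5% above and 19.0% below). The immediate early and stress list was above every mock library for 6 of 19 genes in the other CD3 cells (25.3% of all genes) and for 10 of 19 in CD8 T cells (27.5% of all genes). Fosb had a UMI in 23.4% of endothelial cells, and the part of free RNA in its level was not tested.

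In all, edgeR's quasi-likelihood test called 21 of 3550 genes between the ligated and mock gated cells (0.592%), 20 higher (0.563%) and 1, Gm42418, lower (0.0282%). Among the higher genes were Hba-a1, Cd74, C1qa, Acta2 and Krt8, which mark red blood cells, antigen-presenting cells, macrophages, mural cells and epithelium. For 15 of the 21 genes at least 80% of the ligated UMIs lay in 1 cell. Of the 2 mixed ligated barcodes, 1 held 238 UMIs of erythroid, 118 of macrophage and 85 of dendritic markers, and the other 85 of epithelial and 63 of mural markers. Both also held Trdc (11 and 7 UMIs) and Cd163l1 (3 and 2 UMIs). Without the mixed barcodes, 0 of 3280 genes passed (278 at an unadjusted p under 0.05), and the smallest adjusted p was 0.0723. With the mixed barcodes kept, DESeq2 called 11 genes, and DESeq2's size factors in edgeR gave 29, 23 higher and 6 lower.

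Ly6a and Klf2 were not carried by 1 cell. Ly6a, a membrane protein induced by interferon, was seen in 19 of 25 ligated cells and stood at 451 CPM in ligated cells and at 50.9, 97.2 and 125 CPM in mock 1, 2 and 3 (log2 fold change 2.23 ± 0.43, adjusted p = 0.0373, edgeR). Klf2, a transcription factor of lymphocyte egress, stood at 233 CPM in ligated cells, with 7 of 25 cells positive and 11 of 30 UMIs in the highest cell, and at 0, 43.2 and 28.4 CPM in mock cells. Within gated cells Klf2 did not pass the test between surgery groups. The surgery difference of Klf2 was larger in gated than in other CD3 cells by 3.22 ± 0.60 on the log2 scale (adjusted p = 0.00821, edgeR interaction term), a call that DESeq2 did not make (0 genes called, smallest adjusted p = 1.0). Without the mixed barcodes it was 3.72 (adjusted p = 0.0186), and Ly6a also passed (2.65, adjusted p = 0.0327), with 2 of 6023 genes called (0.0332%). Both genes are abundant in endothelial cells, with a UMI in 75.5% (Klf2) and 97.6% (Ly6a) of them. Gated cells held a median of 4 UMIs of other-class markers in the ligated library, against 2, 1 and 1 in mock 1, 2 and 3, and Mgp, a matrix protein of fibroblasts and vessels, was seen in 19 of 25 ligated cells and 0 of 6, 2 of 33 and 0 of 37 mock cells. The part of free RNA in these values was not tested.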

How the data were processed

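Per the labels' protocols, cells were run on 10x Genomics 3' gene expression droplets. The authors deposited raw UMI counts per gene and cell barcode. Per the file headers the ligated library and mock 1 came from Cell Ranger 6.0.1 and mock 2 and 3 from 7.0.0, whereas the submitters' processing notes name 7.0.1 and mm10. Genes were matched by identifier over 30406 shared genes. Members and gene lists were chosen with earlier results of these data known. Counts were summed per library and class. The main test was the quasi-likelihood test of edgeR 4.0.16 in R 4.3.3 (TMM, filterByExpr, Benjamini-Hochberg threshold 0.05), with the library as block between classes of the same library. SE is the log2 fold change divided by the square root of F, and was left out for the Il23r interaction. DESeq2 1.42.0, another normalization, no filter, stricter gates and leaving out each library were the alternatives. Doublets were not called with a caller: the gate and the barcodes with 20 or more UMIs of other-class markers stand in for it. Shares carry exact Clopper-Pearson 95% intervals and, like the floor of 3 counts, cover counting error only. Endothelial cells (Cdh5 without Cd3 and Ptprc) give the background. Coordinates are GENCODE M21 (GRCm38). In simulated counts, 8-fold changes were recovered for 91.3% of genes in the surgery comparison (86 of 103 lower genes). They were recovered for 79.2% in the interaction (61 of 96 lower genes), 99.5% against other CD3 cells and 100% against CD8 T cells. The simulated spread was fixed at a dispersion of 0.05, and only genes with at least 100 UMIs in gated cells were changed. Recovery for genes with fewer UMIs, or with a wider spread between libraries, was not simulated. Genes were named if they were tested members of the receptor chain and type 17 lists, called members of other lists, or among the 10 largest called changes in a direction; 1 list member is not reported here.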

Additional observations from a re-analysis of the deposited data

Results flagged for a closer look

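For 12 genes the difference between ligated and mock libraries itself differed between gated cells and other CD3 cells (edgeR interaction term, 12 of 6732 genes). The values in parentheses are the surgery difference in gated cells minus that in other CD3 cells, on the log2 scale, and not levels. They were positive for Klf2 (3.22) and Cxcr3 (3.61), a chemokine receptor. Cxcr3 stood at 148 CPM in ligated gated cells, in 9 of 25 cells, and at 0, 21.6 and 17.04 CPM in mock 1, 2 and 3. The hemoglobin genes Hba-a1 (11.99), Hba-a2 (9.41) and Hbb-bs (9.02), the smooth muscle genes Acta2 (5.75), Tagln (8.98) and Myh11 (8.59), and Epcam (5.32) were also positive. Of the erythroid marker UMIs, 238 of 245 in ligated gated cells lay in 1 barcode, and 8436 of 8492 in the other CD3 cells of mock 1 lay in 1 barcode. Abi3bp (-3.70), Cst3 (-1.89) and Il1r1 (-2.80) were negative. Without the mixed barcodes Klf2 remained and Cxcr3 was 3.11 (adjusted p = 0.297, edgeR), and DESeq2 with all gated cells called 0 of the genes (97 at an unadjusted p under 0.05).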

How the results depend on the processing

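In the ligated library, the share of gated cells was 0.22% of CD3 cells and 0.0601% of all cells with cells of 3 or more other-class UMIs left out (dendritic and erythroid lists not counted), and 0.0963% of all cells after thinning to 1000 UMIs; both shares of all cells lay below every mock library. The mock mean was 3.01 to 5.02% of CD3 cells and 0.211 to 0.324% of all cells without each mock library in turn. Thinning gave Trdc in 88.5% and Tcrg-V6 in 12.6% of mock cells, and Il23r in 4.17% of ligated and 33.1% of mock cells. Leaving out a mock library gave mock means of 97.0 to 100.0% for Trdc, 52.0 to 58.8% for Tcrg-V6 and 90.2 to 97.0% for Il23r. Between surgery groups the count of genes was 101 with no filter, 11 with DESeq2, 114 with a term for the Cell Ranger version, 45 with mock 2 and mock 3 summed, 0 (edgeR) with the mixed barcodes left out or with cells of 3 or more other-class UMIs left out (278 and 141 at an unadjusted p under 0.05), and 42 to 413 without each mock library, the highest without mock 1. The interaction count was 28 with no filter, 0 with DESeq2 (97 at an unadjusted p under 0.05), 2 without mixed barcodes and 9 to 41 without each mock library. Against CD8 T cells it was 984 with no filter, 293 with no replicate block and 353 to 701 without each library. Against other CD3 cells it was 1024 with no filter, 254 with no replicate block and 346 to 696 without each library. Signs reversed for Ahr against other CD3 cells (0.10 without mock 3, range to -0.37 without mock 2), for Il17a between surgery groups (0.52 without mock 3, 2.62 with the version term) and for the Il23r interaction (-0.73 without mock 2 to 0.58 without mock 3, -0.15 with at least 2 Cd163l1 UMIs, -0.31 without mixed barcodes); the cause was not tested. Of 60 genes named against CD8 T cells, 60 kept their direction and 50 also their call under every alternative; of 21 named against other CD3 cells 20 and 17 did, of 16 between surgery groups 15 and 0, and of 5 in the interaction 4 and 0. No paired analysis was possible between the surgery groups because the ligated group has 1 library, whereas the class comparisons were paired by library. The 25 ligated cells and the 6 of mock 1 limit all surgery values.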
